A study of Culex quinquefasciatus and Culex pipiens molestus with 2 samples.

Results

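Timeless and cryptochrome are proteins of the insect circadian clock, and 4 of the 16198 transcript models listed for 2 house mosquitoes were studied by identifier: CPIJ007082 and CPIJ000660, described as timeless, and CPIJ009455 and CPIJ017734, described as cryptochrome-2. Females of Culex pipiens molestus were compared with females of Culex pipiens quinquefasciatus, each a laboratory strain, and all that sets the groups apart in the labels is the taxon. Polyadenylated RNA of 30 pooled females made 1 non-directional library per taxon, so taxon and library cannot be told apart and no difference had a replicate check. The sources used here do not give the age or feeding state of the females, or the time of day at which they were collected. The tables carry only the abbreviations Cxm and Cxq, which were read as molestus and quinquefasciatus, and every direction rests on that reading.

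In Drosophila, the transcription factors Clock and Cycle switch on period and timeless, whose proteins return to the nucleus and shut off their own genes, and the transcripts of both cycle over the day. Cryptochrome is the blue-light sensor that leads to the breakdown of the Timeless protein in the fly, and mosquitoes also carry a mammalian-type cryptochrome that represses Clock and Cycle. Timeless has an older relative, timeout, which works at the DNA replication fork, and the mammalian gene called Timeless is the counterpart of timeout. A product description of "timeless" or "cryptochrome-2" therefore does not by itself say which of these roles a model has, and the 4 descriptions were all marked putative by the submitters' annotation.

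The models sharing a name stood in opposite order in the 2 libraries. In the molestus library CPIJ000660 was the higher timeless model and CPIJ017734 the higher cryptochrome-2 model, while in the quinquefasciatus library CPIJ007082 and CPIJ009455 were the higher ones. Levels are in RPKM, that is, reads for each kilobase of a model's length and each M (mega) of uniquely assigned reads, of which there were 9.787 M in the molestus library and 10.17 M in the quinquefasciatus library. Intervals are exact 95% intervals of the read counts. They cover counting error only, and amplified reads without molecular identifiers are not independent molecules.

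The timeless model CPIJ007082 is 2991 bases long, which is a whole number of codons (997). It had 541 reads, or 18.5 RPKM (17.0 to 20.1), in the molestus library and 1384 reads, or 45.5 RPKM (43.2 to 48.0), in the quinquefasciatus library. Its level was 2.46-fold lower in molestus (2.23 to 2.73), a log2 ratio of -1.26 on the log2(RPKM + 1) scale, which slightly understates ratios. This model lay above 62.5% of the listed models in the molestus library and above 86.9% in the quinquefasciatus library.

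The other timeless model, CPIJ000660, spans 2052 bases or 684 codons. It had 658 reads, or 32.8 RPKM (30.3 to 35.4), in the molestus library and 283 reads, or 13.6 RPKM (12.0 to 15.2), in the quinquefasciatus library. Its level was 2.42-fold higher in molestus (2.10 to 2.79), a log2 ratio of 1.21. The ratio moved below 2-fold when the libraries were rescaled by the median ratio of all models (0.93) or by the summed RPKM left after taking out the most abundant models (0.98).

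The cryptochrome-2 model CPIJ009455 is 1500 bases or 500 codons long. It had 144 reads, or 9.81 RPKM (8.27 to 11.5), in the molestus library and 702 reads, or 46.0 RPKM (42.7 to 49.6), in the quinquefasciatus library. With a level 4.69-fold lower in molestus (3.92 to 5.66) and a log2 ratio of -2.12, it differed the most of the 4 models. It was the lowest of the 4 in molestus, and in the quinquefasciatus library its interval overlapped that of CPIJ007082 at the top.

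The other cryptochrome-2 model, CPIJ017734, is 1620 bases or 540 codons long. It had 484 reads, or 30.5 RPKM (27.9 to 33.4), in the molestus library and 261 reads, or 15.8 RPKM (14.0 to 17.9), in the quinquefasciatus library. Its level was 1.93-fold higher in molestus (1.65 to 2.25), a log2 ratio of 0.90, which is short of the 2-fold used for calls. Its counting interval overlapped that of CPIJ000660 in both libraries, so these 2 models could not be ordered in either.

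**Figure D1:**
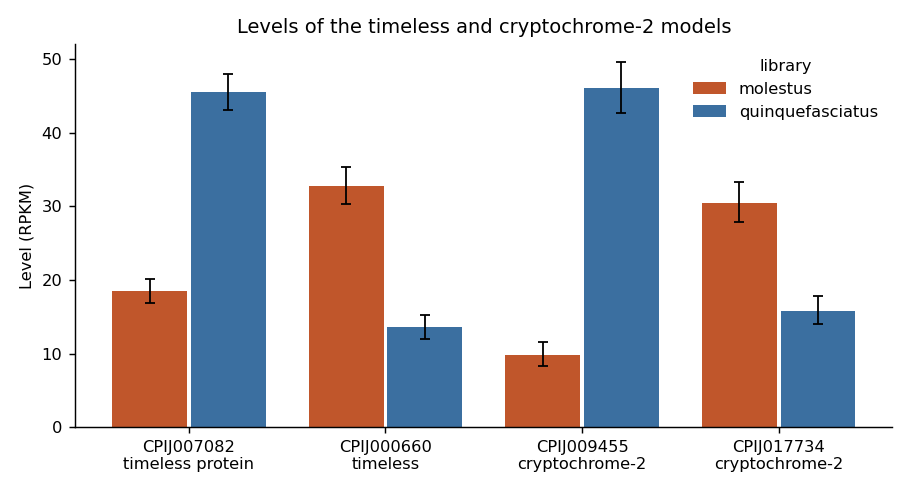
Level in RPKM of each timeless and cryptochrome-2 model in the molestus library (left bar of each pair) and the quinquefasciatus library (right bar), with exact 95% counting intervals and 1 library per taxon. CPIJ007082 and CPIJ009455 had 18.5 and 9.81 RPKM in molestus against 45.5 and 46.0 RPKM in quinquefasciatus, while CPIJ000660 and CPIJ017734 had 32.8 and 30.5 RPKM against 13.6 and 15.8 RPKM.

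These ratios are read against a wide background, since 12789 models reached at least 1 RPKM in at least 1 library and many of them differed. Among them, 22.8% stood at least 2-fold higher in molestus and 18.0% at least 2-fold higher in quinquefasciatus. All 4 timeless and cryptochrome-2 models were among the models compared, with 1 called higher in molestus (CPIJ000660) and 2 called higher in quinquefasciatus (CPIJ007082 and CPIJ009455). A ratio as low as that of CPIJ009455 or lower was found for 3.39% of the compared models, and one as low as that of CPIJ007082 for 12.6%. In the other direction, 17.1% of the compared models had a ratio at or above that of CPIJ000660 and 25.6% one at or above that of CPIJ017734.

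Comparing the models of a name within a library removes the scaling between libraries. The level of CPIJ007082 was 0.564 times that of CPIJ000660 in molestus (0.502 to 0.633) and 3.36 times in quinquefasciatus (2.95 to 3.83). The ratio was thus 5.94-fold lower in molestus (4.99 to 7.09). Of the reads of both timeless models, CPIJ007082 held 45.1% (42.3 to 48.0) in molestus and 83.0% (81.1 to 84.8) in quinquefasciatus.

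For cryptochrome-2, the level of CPIJ009455 was 0.321 times that of CPIJ017734 in molestus (0.265 to 0.388) and 2.90 times in quinquefasciatus (2.52 to 3.36), so the ratio was 9.03-fold lower in molestus (7.11 to 11.5). CPIJ009455 held 22.9% (19.7 to 26.4) of the reads of both cryptochrome-2 models in molestus and 72.9% (70.0 to 75.7) in quinquefasciatus. The order of the models was exchanged in both names, and in neither library did the interval of either ratio include equal levels.

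In RPKM as deposited, each name summed over its models differed less than either of its models did. The timeless models together had 51.2 RPKM in molestus and 59.1 RPKM in quinquefasciatus, which is 1.15-fold lower in molestus. The cryptochrome-2 models together had 40.3 RPKM in molestus and 61.9 RPKM in quinquefasciatus, which is 1.53-fold lower in molestus. As a share of all reads, the summed reads in molestus were 0.747 times those in quinquefasciatus (0.693 to 0.805) for timeless. For cryptochrome-2 they were 0.677 times (0.612 to 0.750). The sums were not rescaled. Each rescaling lowers molestus, which widens the difference of the sums and narrows that of CPIJ017734.

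To see how often order is exchanged among models that share a description, pairs were surveyed over the whole tables. There were 451 descriptions carried by exactly 2 compared models, each seen in both libraries and with 50 reads or more in its higher library, and in 21.7% of them the order of the RPKM values was exchanged between the libraries by any amount. In 10.9% of them, cryptochrome-2 included, it was exchanged with the counting intervals of both libraries beyond equal levels. The log2 ratios of the cryptochrome-2 models lay 3.03 apart, and 23 of the 451 pairs lay further apart. The log2 ratios of the timeless models, whose descriptions differ by a word so that they are not among these pairs, lay 2.47 apart, and 45 of the pairs lay further apart. The median distance within a pair was 0.78. This survey was chosen after the values of the timeless and cryptochrome-2 models were known.

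**Figure D2:**
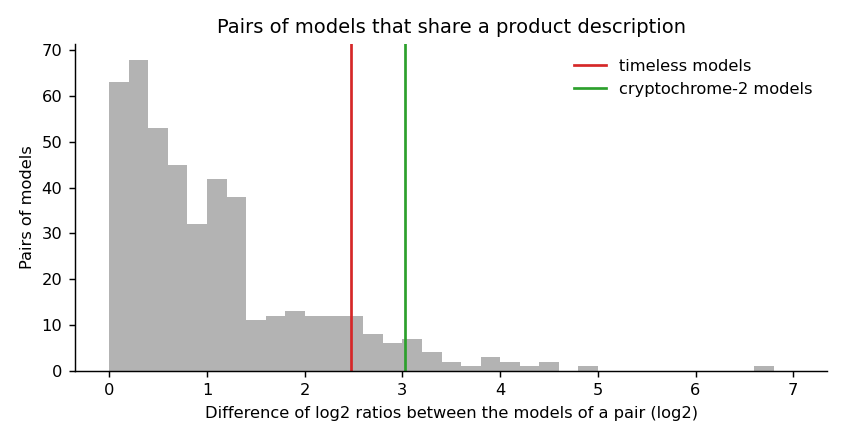
Number of pairs of models that share a product description (vertical axis) by the distance between the log2 ratios of the pair (horizontal axis), over 451 pairs, with the timeless and cryptochrome-2 models as vertical lines. The lines stand at 2.47 and 3.03, in the upper tail of pairs whose median distance was 0.78.

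The models also differed in how much of their length the reads covered, and this divided them in the same way as the levels. CPIJ007082 was covered over 76.7% of its length in molestus and 75.2% in quinquefasciatus, although it had more reads in quinquefasciatus. CPIJ009455 was covered over 74.3% in molestus and 76.3% in quinquefasciatus. CPIJ000660 was covered over 97.3% in molestus and 97.7% in quinquefasciatus, and CPIJ017734 over 97.5% and 94.4% in the same order. In bases, CPIJ007082 lacked reads over 696 bases in molestus and 742 in quinquefasciatus, and CPIJ009455 over 385 and 355 bases.

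Models with a like number of reads per base, within 20% of each of the 4, give a measure of what is usual. At the read density of CPIJ007082 the median covered length was 91.8% over 1171 models in molestus and 97.1% over 950 models in quinquefasciatus, and 15.5% of those molestus models and 4.84% of those quinquefasciatus models were covered as little as it was. At the density of CPIJ009455 the medians were 86.0% over 903 models and 97.0% over 931 models, with 22.9% of the molestus and 5.80% of the quinquefasciatus models covered as little. CPIJ000660 and CPIJ017734 lay above the medians of their like in both libraries. The tables do not say where on the model the uncovered bases lie. The models carry identifiers of the Culex quinquefasciatus genome project, and whether reads of molestus were assigned to them as readily was not tested.

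**Figure D3:**
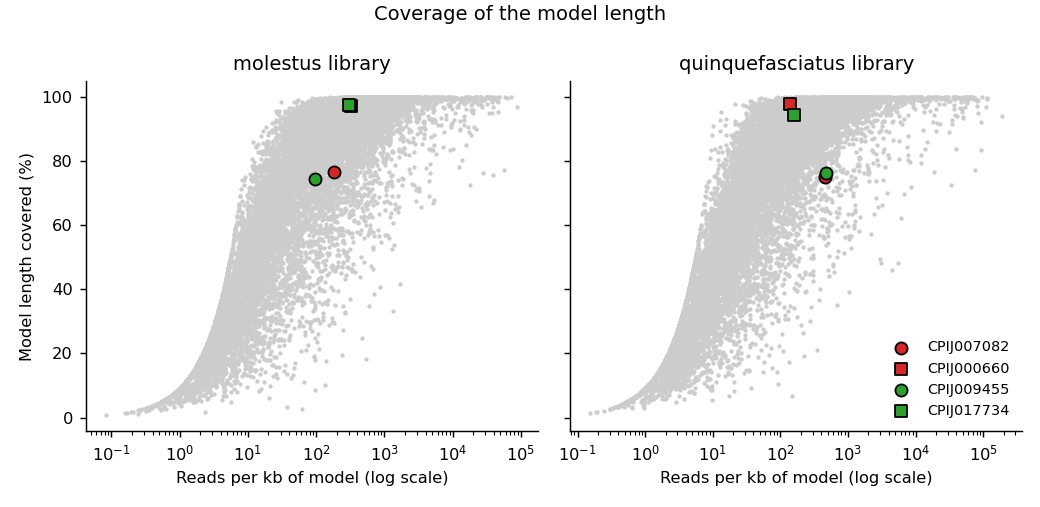
Percent of the model length covered by reads (vertical axis) against reads per kb of model on a log axis, for all listed models (grey) and for the timeless (red) and cryptochrome-2 (green) models, in the molestus library (left) and the quinquefasciatus library (right). CPIJ007082 and CPIJ009455 (circles) stayed between 74.3% and 76.7% in both libraries, and CPIJ000660 and CPIJ017734 (squares, overlapping in the left panel) between 94.4% and 97.7%.

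A further relative by name was the model CPIJ000659, described as timeout/timeless-2, whose identifier is next to that of CPIJ000660 and which was added after its values were seen. It had 165 reads, or 3.98 RPKM, in molestus and 49 reads, or 1.14 RPKM, in quinquefasciatus, and was 3.50-fold higher in molestus (2.53 to 4.92). It is 4239 bases long, and 46.9% of it was covered in molestus and 39.1% in quinquefasciatus. Per length CPIJ000660 stood 8.24-fold above it in molestus (6.94 to 9.83) and 11.9-fold above it in quinquefasciatus (8.78 to 16.5).

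By description, 4 models were listed for the other genes of the feedback loop, and all were compared. They include models described as aryl hydrocarbon receptor nuclear translocator, the family of Clock's partner Cycle, which may not be loop genes. Of the 4, 1 was at least 2-fold higher in molestus, and it is of that description (CPIJ014773). The other 3 were at least 2-fold higher in quinquefasciatus. Over all compared models these shares were 22.8% and 18.0%. At a pseudocount of 10 the 3 became 0. The median log2 ratio was -1.25, against 0.18 over all compared models. Period (CPIJ007193), whose protein pairs with Timeless in the fly, had 12.2 RPKM in molestus and 32.7 RPKM in quinquefasciatus, 2.68-fold lower in molestus (2.38 to 3.03). The model of Clock (CPIJ002147), described as circadian locomoter output cycles protein kaput, had 8.31 RPKM in molestus and 25.4 RPKM in quinquefasciatus, 3.05-fold lower in molestus (2.50 to 3.75). These ratios lay on the same side as those of CPIJ007082 and CPIJ009455.

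Clock's partner Cycle belongs to the family of the aryl hydrocarbon receptor nuclear translocator, and the models of that description again differed in direction. CPIJ014938 had 3.30 RPKM in molestus and 8.48 RPKM in quinquefasciatus, 2.57-fold lower in molestus (1.97 to 3.39). CPIJ014773 had 53.6 RPKM in molestus and 16.8 RPKM in quinquefasciatus, 3.19-fold higher in molestus (2.82 to 3.61). The tables do not say whether either is Cycle.

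The tables also held 2 models described as cryptochrome-1 and no model whose description contains photolyase, the DNA repair enzyme from whose family cryptochromes come. CPIJ015481 had 4.44 RPKM in molestus and 16.0 RPKM in quinquefasciatus, 3.60-fold lower in molestus (2.89 to 4.52). CPIJ018859 had 21.5 RPKM in molestus and 18.2 RPKM in quinquefasciatus, a fold of 1.18 (1.04 to 1.34) that turned below 1 under rescaling by the median ratio and by the summed RPKM without the most abundant models. The ratio of CPIJ015481 to CPIJ018859 was 4.24-fold lower in molestus (3.28 to 5.50), so that the cryptochrome-1 models differed within their name as the cryptochrome-2 models did, though by less, and without a change of order beyond counting error, at 0.207 times in molestus (0.166 to 0.256) and 0.876 times in quinquefasciatus (0.763 to 1.01). In the quinquefasciatus library CPIJ009455 was the highest of the 4 cryptochrome models, and in molestus CPIJ017734 was.

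Kinases, phosphatases and degradation factors of kinds that act on Period and Timeless in the fly were mostly within 2-fold. Of 18 compared models of 19 listed, 3 were at least 2-fold higher in molestus and none at least 2-fold higher in quinquefasciatus (1 under each rescaling), beside 22.8% and 18.0% of all compared models, with a median log2 ratio of 0.61. The ratio was above 0 for 17 of the 18 and for 14 after rescaling by the median ratio. The discs overgrown kinase, called Doubletime in the fly clock, phosphorylates Period, and its models also parted. CPIJ003503 was 2.50-fold higher in molestus (2.33 to 2.69), at 207 against 82.6 RPKM, and CPIJ006381 was 1.88-fold lower (1.68 to 2.11), at 22.6 against 42.4 RPKM.

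The other models above 2-fold were the beta subunit of casein kinase II (CPIJ014996), a kinase of Period, at 2.62-fold higher in molestus (2.41 to 2.85), and a gamma B'' regulatory subunit of protein phosphatase 2A (CPIJ003227) at 3.23-fold higher (2.57 to 4.08). Glycogen synthase kinase-3 beta (CPIJ006114), the Shaggy kinase that phosphorylates Timeless in the fly, was 1.71-fold higher in molestus (1.61 to 1.82), at 185 against 108 RPKM. Cullin-1 (CPIJ003090) and cullin-3 (CPIJ011310), scaffolds of ubiquitin ligases, stood 1.77-fold (1.71 to 1.84) and 1.51-fold (1.43 to 1.60) above their quinquefasciatus levels.

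Among models named for output of the clock, 8 of 10 listed were compared. Of the 8, 1 stood at least 2-fold higher in molestus and 5 at least 2-fold higher in quinquefasciatus. Over all compared models these shares were 22.8% and 18.0%. The median log2 ratio of the 8 was -1.23, against 0.18 over all compared models. At a pseudocount of 10 the counts among the 8 were 0 and 2. Takeout, a clock-controlled secreted protein of the fly linked to feeding, accounted for the 5. CPIJ006965 had 12.9 RPKM in molestus and 48.5 RPKM in quinquefasciatus, 3.76-fold lower in molestus (2.99 to 4.76). CPIJ015482 had 27.1 RPKM in molestus and 72.0 RPKM in quinquefasciatus, 2.65-fold lower (2.25 to 3.14). The model higher in molestus, a circadian clock-controlled protein precursor (CPIJ006962), had 12 reads there and 0 in quinquefasciatus. Against a floor of 3 reads it was 4.15-fold higher, a value without counting error, and the lower end of its exact interval was 2.89-fold. With that floor it was no longer past 2-fold on the log2(RPKM + 1) scale. Another model of that description (CPIJ006963) had 63 reads in each library.

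**Figure D4:**
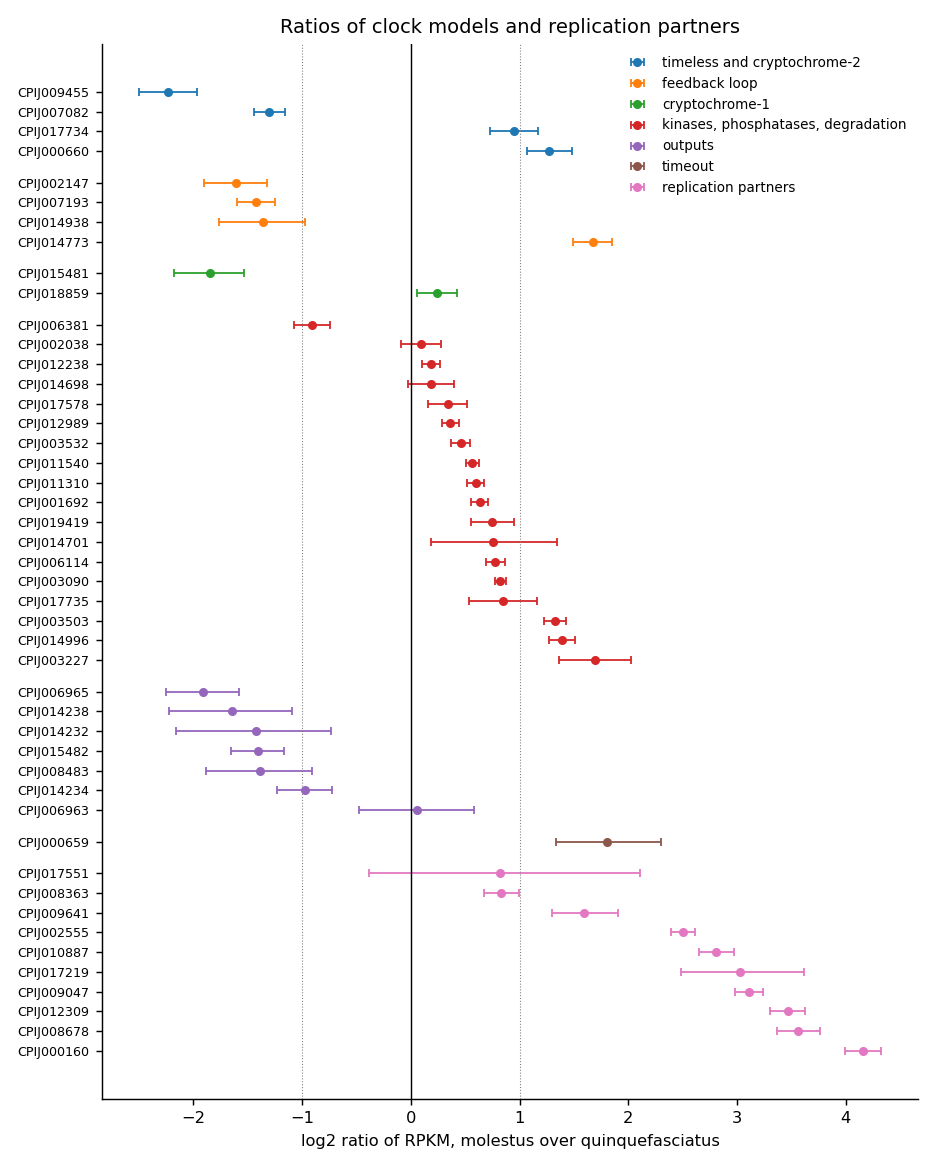
Log2 ratio of RPKM without a pseudocount, molestus over quinquefasciatus, of the timeless and cryptochrome-2 models, the other clock models, timeout and the replication partners that were compared and had at least 10 reads in each library, with exact 95% counting intervals, and dotted lines at 2-fold. CPIJ009455 and CPIJ007082 lie left of 0, as do Period (CPIJ007193), Clock (CPIJ002147) and the takeout models shown. CPIJ000660 and CPIJ017734 lie right of 0. So do the replication partners shown and 17 of the 18 models of kinases, phosphatases and degradation factors. A replication partner left of 0 (CPIJ014883) had fewer than 10 reads in each library and is not shown.

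Because a relative of timeless works in DNA replication, models of the fork proteins it is known to work with were set beside it. Of 13 compared models of 19 listed, 10 were at least 2-fold higher in molestus and none at least 2-fold higher in quinquefasciatus. Over all compared models these shares were 22.8% and 18.0%. The median log2 ratio of the list was 2.46, against 0.18 over all compared models. Under each rescaling 1 model was at least 2-fold higher in quinquefasciatus, an MCM7 model with 1 read in molestus and 7 in quinquefasciatus (CPIJ014883). The timeless interacting protein (CPIJ017219), which forms a complex with the mammalian Timeless, had 30.1 RPKM in molestus and 3.70 RPKM in quinquefasciatus, 8.14-fold higher in molestus (5.59 to 12.2). Claspin (CPIJ009641), a checkpoint adaptor at the fork, had 14.4 RPKM in molestus and 4.77 RPKM in quinquefasciatus, 3.02-fold higher (2.46 to 3.74). The helicase subunits MCM2 (CPIJ002555) and mcm5 (CPIJ008678) stood 5.67-fold (5.25 to 6.12) and 11.8-fold (10.3 to 13.6) above quinquefasciatus in molestus. Another mcm5 model, mcm5-A (CPIJ008363), had 32.3 RPKM in molestus and 18.1 RPKM in quinquefasciatus, 1.78-fold higher in molestus (1.60 to 1.99). That interval lay below the interval of CPIJ000660 (2.10 to 2.79) and overlapped that of CPIJ017734 (1.65 to 2.25). The log2 ratios of the list ran from -0.96, that of CPIJ014883 with its few reads, to 4.06. Those of CPIJ000660 (1.21) and CPIJ017734 (0.90) lay below the median of the list. Those of the other timeless model, CPIJ007082 (-1.26), and the other cryptochrome-2 model, CPIJ009455 (-2.12), lay below its whole range.

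In libraries of pooled females, fewer cells of a type and less RNA per cell cannot be told apart. The counts of markers below stand beside 22.8% of all compared models at least 2-fold higher in molestus and 18.0% in quinquefasciatus. Opsins, the light receptors of the eye, summed to 9342 RPKM in molestus and 18566 RPKM in quinquefasciatus, with 4 of 7 compared models at least 2-fold higher in quinquefasciatus and none in molestus. Myosin heavy chains and troponins of muscle summed to 1078 RPKM in molestus and 2218 RPKM in quinquefasciatus, with 10 of 17 compared models at least 2-fold higher in quinquefasciatus and 2 in molestus. Trypsins of the midgut summed to 2268 and 13637 RPKM in the same order, with 2 of 39 higher in molestus and 23 in quinquefasciatus. Vitellogenins and vitellogenic carboxypeptidases of fat body and ovary summed to 390 RPKM in molestus and 167 RPKM in quinquefasciatus, with 1 of 4 compared models at least 2-fold higher in molestus and a median log2 ratio of -0.18, so the sum and the median differ in sign. The D7 proteins of the salivary gland were nearly absent from molestus, at 0.200 RPKM with 2 of 3 models at 0 reads, against 95.1 RPKM in quinquefasciatus. The part of these tissues, and of the DNA replication genes, in the levels of the timeless and cryptochrome-2 models was not tested.

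The described models whose pair of levels lay nearest to each of the 4 were taken by the distance in log2(RPKM + 1) over the 2 libraries, among 8238 models. For CPIJ007082 they were a GTP-binding protein (CPIJ014743) at 19.5 RPKM in molestus and 45.8 RPKM in quinquefasciatus and an inward rectifier potassium channel (CPIJ017138) at 18.3 and 43.2 RPKM in that order. For CPIJ009455 they were the glutamate-gated chloride channel DrosGluCl (CPIJ002435) at 10.5 RPKM in molestus and 44.7 RPKM in quinquefasciatus and an acetyl-CoA acetyltransferase (CPIJ015227) at 8.99 and 45.1 RPKM. For CPIJ000660 they were a nuclear receptor coactivator (CPIJ003833) at 32.1 RPKM in molestus and 13.7 RPKM in quinquefasciatus and a protein arginine N-methyltransferase (CPIJ009499) at 33.3 and 13.4 RPKM. For CPIJ017734 they were the polycomb group protein Pc (CPIJ008739) at 30.5 RPKM in molestus and 16.1 RPKM in quinquefasciatus and an inhibitor of growth protein (CPIJ016701) at 29.9 and 15.9 RPKM. Within a distance of 0.25 there were 21 models for CPIJ007082, 11 for CPIJ009455, 113 for CPIJ000660 and 141 for CPIJ017734.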

How the data were processed

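For each transcript model the authors deposited a count of uniquely assigned reads, its RPKM and the percent of the model length covered (coverage), per the file headers. Aligner, counter, filters and annotation release: not given in the sources used here. Deposited counts summed to the library totals in the headers, and deposited RPKM equalled count divided by length and total. The tables were joined on the identifier and a model absent from a table was taken as 0 reads. Of all model lengths, 89.1% were multiples of 3, as coding lengths are. The libraries do not keep strand, and near-identical copies lose reads where only unique assignments are counted.

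Folds are RPKM ratios, molestus over quinquefasciatus or the inverse where said to be lower, with exact conditional binomial (Clopper-Pearson) intervals. The change of a ratio within a name is the conditional odds ratio with its exact interval. Calls used log2(RPKM + 1), a minimum of 1 RPKM in 1 library and 2-fold. No test was run and no p-value computed with 1 library per taxon, so a count model was not fitted. Rescaling used the median ratio (a log2 shift of -0.30), edgeR TMM (-0.21), DESeq2 size factors (-0.13), or the RPKM sum left after taking out each library's 100 most abundant models (-0.24).

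The 4 models and the 5 gene lists, which are text patterns on the descriptions, were chosen with earlier results of these data known. Models were named from the 4, from the lists with at least 1 RPKM, and as the 2 nearest in level, and others are said to be added. No sequence was used. Intervals and calls were tested on simulated Poisson counts. Tools were Python 3.11.15, numpy 2.4.6, pandas 2.3.3, scipy 1.17.1, matplotlib 3.10.9, R 4.3.3, edgeR 4.0.16 and DESeq2 1.42.0.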

Additional observations from a re-analysis of the deposited data

How the results depend on the processing

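The timeless and cryptochrome-2 models kept their directions under pseudocounts of 0.1 and 10 and 4 rescalings. Their log2 ratios moved by more than counting error at a pseudocount of 10 (CPIJ007082 -0.96, CPIJ000660 0.86, CPIJ009455 -1.50, CPIJ017734 0.65), which by construction shrinks ratios, and under rescaling by the median ratio (-1.54, 0.93, -2.40 and 0.62 in that order). Scaling by the RPKM sum that excludes the most abundant models moved CPIJ007082 to -1.49, CPIJ000660 to 0.98 and CPIJ017734 to 0.67, and TMM moved CPIJ007082 to -1.46. The changes of the ratios within both names did not move beyond their intervals with RPKM + 1 or with reads not divided by length. With reads not divided by length the ratio of CPIJ007082 to CPIJ000660 was 0.822 in molestus and 4.89 in quinquefasciatus, by the unequal lengths.

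Of the 32 compared clock models outside the 4, 5 were at least 2-fold higher in molestus and 9 in quinquefasciatus. Over all compared models these shares were 22.8% and 18.0%. The median log2 ratio of the 32 was 0.28, against 0.18 over all compared models. At a pseudocount of 10 the counts were 3 and 2, at a 4-fold threshold 0 and 0, and the median turned to -0.0084 under rescaling by the median ratio. The covered length of models of like read density stayed within its quartiles at a window of 10%. No paired analysis was possible because each taxon had 1 library. With 144 molestus reads, CPIJ009455 has the widest relative interval of the 4.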

Other observations

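Of the 451 pairs of models that share a description, 23 parted more widely than cryptochrome-2 did. In 18 of the 451 (3.99%), 1 model was at least 2-fold higher in molestus and the other at least 2-fold higher in quinquefasciatus. Some of these 18 parted less widely than cryptochrome-2. The pairs named here are from the 18 and parted more widely, and they are given in the order of the distance between their log2 ratios. Eukaryotic translation initiation factor 2C is a name used for Argonaute proteins of RNA silencing. Of its models, CPIJ006138 was 4.55-fold higher in molestus (4.17 to 4.97) and CPIJ014791 was 6.78-fold lower (6.33 to 7.27). In selenide, water dikinase, which makes the selenium donor of selenoproteins, CPIJ001564 was 7.31-fold higher in molestus (6.59 to 8.12) and CPIJ018004 was 3.27-fold lower (2.91 to 3.68). In the FACT complex subunit Ssrp1, a histone chaperone, CPIJ002953 was 3.41-fold higher in molestus (3.18 to 3.67) and CPIJ020011 was 3.60-fold lower (3.07 to 4.24). In the transcriptional repressor ctcf, CPIJ010345 was 3.66-fold higher in molestus (2.89 to 4.69) and CPIJ009347 was 2.84-fold lower (2.17 to 3.74). These pairs were named after their values were seen.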
